A study of Mus musculus with 11 samples.

Results

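The gene deserts of the mouse genome were taken here as stretches of the autosomes that lie at least 500 kb from the body of any protein-coding gene. The autosomes were cut into non-overlapping tiles of 100 kb, and a tile was kept as a desert tile when its distance to the nearest protein-coding gene reached that limit and the HA library from uninduced cells placed at least 1 interval in it. Of 24002 autosomal tiles with such an interval, 1595 were desert tiles, which is 6.65% of them and 159.5 Mb of sequence. They formed 196 blocks of adjoining tiles, of which 114 held 5 or more tiles and 26 held a single tile, and the longest block held 34. A further 597 tiles met the distance limit but held no interval of the uninduced library, and their sequence was wholly undetermined. Blocks are called below by the protein-coding genes that flank them, and coordinates are those of mm9.

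The study placed a doxycycline-inducible, HA-tagged histone gene (a TetO cassette at Col1a1, with the M2rtTA transactivator at ROSA26) into KH2 mouse embryonic stem (ES) cells of a 129 X C57bl/6 background and sequenced chromatin immunoprecipitated for the tag. HA-MacroH2A2, written HA-Macro, was followed in ES cells without doxycycline (Dox) and at 3 h, 6 h and 12 h of 2 µg/ml Dox, and in mouse embryonic fibroblasts (MEFs) at 3 h, 6 h and 12 h of the same dose. HA-H3.3 was followed in ES cells at 3 h and 6 h of that dose. MacroH2A2 itself was precipitated with its own antibody from each cell type, and the labels give no Dox state for these 2 samples but state that each combines 2 replicates. The MEFs came from chimeric embryos made with the engineered ES cells, were selected with puromycin to remove host cells, and were used at passage 2, so that they descend from the same tagged line, and feeder cells were depleted from the ES cultures by plating. Each of the 11 conditions had 1 library. No test between conditions was run, no p-value is given, and every difference compares 2 libraries. Intervals quoted for ratios cover counting error only.

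MacroH2A2 is a variant of histone H2A that carries a large extra domain, the macro domain, and macroH2A proteins are known from the inactive X chromosome and other silent chromatin. H3.3 is a variant of histone H3 that can be laid down outside of DNA replication, at active genes and regulatory elements by the HIRA complex and at repeats by ATRX and DAXX. Gene deserts are AT-rich, are often bound to the nuclear lamina and replicated late in the S phase, and some hold distant enhancers of the developmental genes beside them.

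Sequence is shown for 3 desert windows of 1 kb chosen for their many H3.3 intervals at 6 h. They have the most once windows with over 12 intervals in the uninduced library, tiles in the top 1% of that library and 1 chromosome are left out and windows are kept at least 5 Mb apart, and the highest desert window without these limits held 115. Each is shown by its central 300 bases beside a window with a usual count, and CpG dinucleotides are in capitals. The window with a usual count was picked at the median count of the uninduced library in its block, not by H3.3 or base composition.

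chr15:14626351-14626650, plus strand, block Cdh6-Cdh9: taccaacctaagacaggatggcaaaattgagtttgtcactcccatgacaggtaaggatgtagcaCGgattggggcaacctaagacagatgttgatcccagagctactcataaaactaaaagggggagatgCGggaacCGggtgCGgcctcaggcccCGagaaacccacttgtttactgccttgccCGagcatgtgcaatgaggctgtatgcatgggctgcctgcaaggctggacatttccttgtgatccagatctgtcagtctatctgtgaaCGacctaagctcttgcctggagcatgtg
chr2:8420351-8420650, plus strand, block Celf2-Gata3: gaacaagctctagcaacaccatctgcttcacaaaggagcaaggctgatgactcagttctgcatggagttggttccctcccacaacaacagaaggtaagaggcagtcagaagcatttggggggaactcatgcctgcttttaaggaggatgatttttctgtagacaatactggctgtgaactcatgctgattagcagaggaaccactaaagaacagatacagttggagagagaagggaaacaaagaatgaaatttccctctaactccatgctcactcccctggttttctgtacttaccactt
chr5:60256351-60256650, plus strand, block Pcdh7-G6pd2: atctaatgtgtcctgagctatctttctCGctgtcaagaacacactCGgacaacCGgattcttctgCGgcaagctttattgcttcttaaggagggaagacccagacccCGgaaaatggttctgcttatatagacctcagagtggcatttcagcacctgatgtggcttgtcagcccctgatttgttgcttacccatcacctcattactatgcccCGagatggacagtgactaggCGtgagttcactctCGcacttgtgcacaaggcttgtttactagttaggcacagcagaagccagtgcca
chr14:81000351-81000650, plus strand, block Olfm4-Pcdh17, usual count: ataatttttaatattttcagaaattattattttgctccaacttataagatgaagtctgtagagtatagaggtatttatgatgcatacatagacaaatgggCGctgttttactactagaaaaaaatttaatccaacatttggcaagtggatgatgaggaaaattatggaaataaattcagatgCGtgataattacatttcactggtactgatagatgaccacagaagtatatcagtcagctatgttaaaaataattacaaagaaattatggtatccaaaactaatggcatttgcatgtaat

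These 3 windows were richer in G and C than the window with a usual count, at 51.7%, 45.3% and 49.3% against 29%, and than the median desert tile, which had 37.1%, and 2 of them held 7 and 8 CpG dinucleotides against 2 there, while the window of Celf2-Gata3 held 0. The window of Cdh6-Cdh9 held 43 H3.3 intervals at 6 h and 13 at 3 h, that of Celf2-Gata3 held 38 and 7, and that of Pcdh7-G6pd2 held 38 and 4. The window with a usual count held 3 at 6 h and 1 at 3 h. The counts at 6 h chose the windows, whereas those at 3 h did not. Without Dox the 3 chosen windows held 5, 4 and 10 HA intervals, which the rule had capped at 12, the window with a usual count held 4, and the mean desert window held 4.55. When each sequence was cut into 10 pieces of 30 bases, all 10 pieces of the Celf2-Gata3 window occurred at 1 place in the genome. In the Cdh6-Cdh9 window 8 pieces did, and in the Pcdh7-G6pd2 window 6 did, with a piece of the latter at 45 places, and where an interval came from cannot be told apart between such copies.

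The libraries held 6488112 to 20541627 intervals, and a desert tile had a median of 183 to 538 interval midpoints depending on the library. All levels below are midpoints per tile of 100 kb for every 1000000 midpoints on the autosomes, X and Y, written ppm, so that each level is relative to the rest of its own library. An interval was 150 bp in each of the 7 HA-Macro libraries and 400 bp elsewhere, and identical intervals made up 3.27% to 6.00% of the former libraries and 0.463% to 0.693% of the latter. Interval length therefore cannot be told apart from the antibody or the tagged histone across these sets, and differences are taken within a set. Some libraries also stood apart over single stretches of a chromosome, which were found after values had been seen. A stretch was drawn where a running median over 11 tiles was at least 1.5-fold from the autosomal median, with 5 or more desert tiles. Scanned were the level without Dox, which gave the first stretch, and 1 ratio, which gave the second. That ratio was anti-MacroH2A2 in ES cells over H3.3 at 3 h, and no other library was scanned. In the first stretch, chr14:70500001-73300000 of 28 tiles, the median level without Dox was 19.1 against 35.1 in the 20 tiles that flank it, and the level was 0.40 of the flanks in HA-Macro ES cells at 6 h, 0.47 at 12 h and 0.46 in HA-Macro MEFs at 12 h, but 0.67 at 3 h in ES cells and 0.86 and 0.94 with anti-MacroH2A2 in ES cells and MEFs. H3.3 ES cells were at 0.84 at 3 h and 0.51 at 6 h. The stretch holds the 5 tiles of the desert Gfra2-Fndc3a. In the second stretch, chr3:57100001-71400000 of 143 tiles, the anti-MacroH2A2 ES library alone was low, with a median of 17.9 against 27.8 in the flanks, while the H3.3 library at 3 h had 32.2 against 28.0 and the uninduced library 36.5 against 35.5. It holds 10 of the 17 tiles of the desert Otol1-Sis. Both stretches hold more tiles outside deserts than inside them, and what sets them was not tested. The ES library at 3 h also had a Y chromosome share of 0.130%, against 0.0303% to 0.0382% in the other HA-Macro ES libraries, and the share was 0.107% and 0.0709% for H3.3 at 3 h and 6 h and 0.106% with anti-MacroH2A2 in ES cells.

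**Figure D1:**
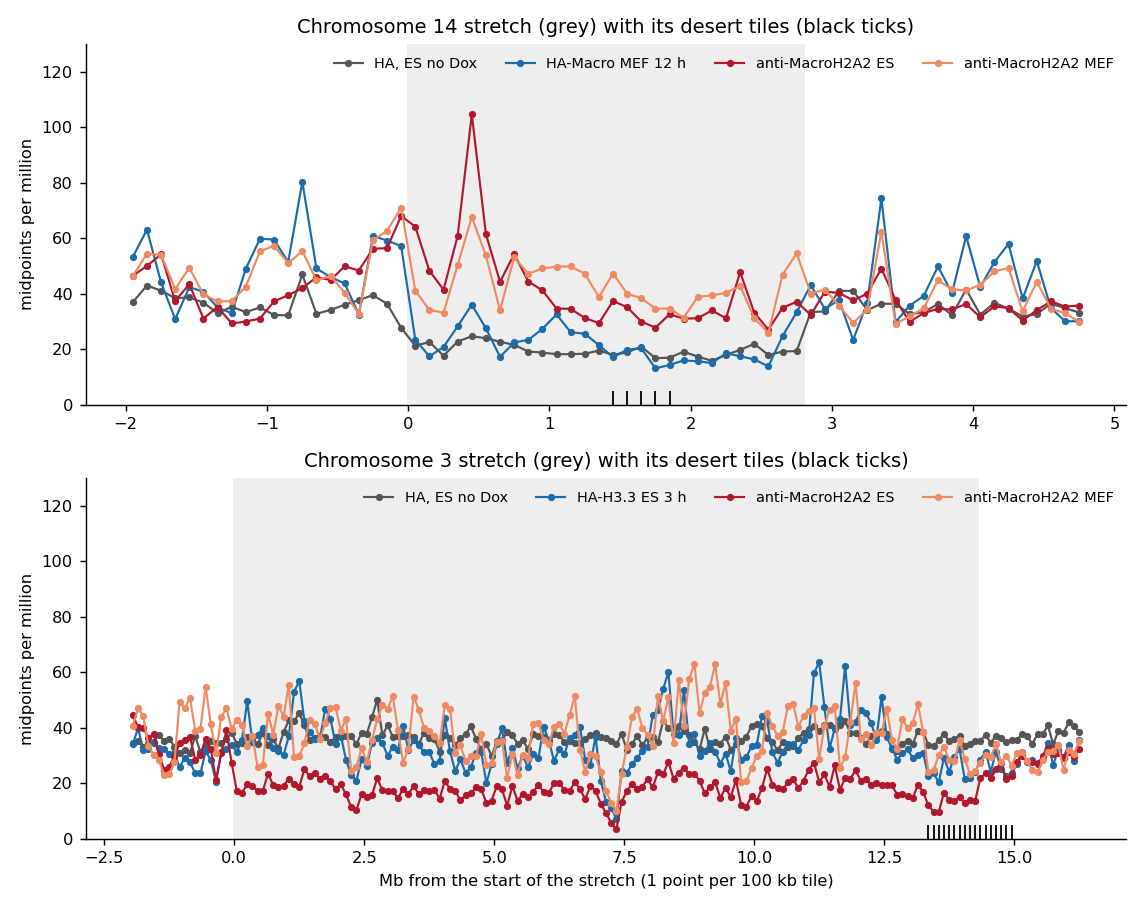
Level per 100 kb tile in ppm (vertical axis) along the chromosome 14 stretch and the chromosome 3 stretch, against the distance from the start of the stretch in Mb (horizontal axis), with a coloured line for each library named in the key, the stretch in grey and desert tiles as black ticks. On chromosome 14 the uninduced library falls from about its flank median of 35.1 to 19.1 over the whole stretch, and on chromosome 3 the anti-MacroH2A2 ES library falls from 27.8 to 17.9.

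Desert tiles were lower than the other autosomal tiles in every library, by little without Dox and by more once the tagged histone was induced. Without Dox the median desert tile was at 36.2 and the median of the 22407 other tiles at 37.6, a difference of -0.05 on the log2 scale. HA-Macro in ES cells gave desert medians of 25.7 at 3 h, 25.9 at 6 h and 25.1 at 12 h against 33.0, 35.7 and 35.7 in the other tiles, which is -0.36, -0.46 and -0.51. In MEFs the desert medians were 27.9, 26.9 and 26.2 against 35.6, 36.4 and 36.6, or -0.35, -0.44 and -0.48. The difference from other tiles thus had the same order in both cell types, least at 3 h and greatest at 12 h, although no replicate measures the error of these steps. Relative to tiles of the same G and C content it was -0.035, -0.050 and -0.046 in ES cells. In MEFs it was then 0, -0.015 and -0.014, so that 12 h was not the greatest in either.

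For MacroH2A2 itself the deserts were at 28.6 against 38.4 in ES cells and at 32.2 against 38.8 in MEFs, which is -0.43 and -0.27. H3.3 gave 28.2 against 36.7 at 3 h and 20.2 against 30.5 at 6 h, which is -0.38 and -0.59, the lowest desert level relative to other tiles in the series. As a share of all midpoints the deserts took 5.79% without Dox, 4.15% to 4.29% in the induced HA-Macro ES libraries, 4.599% to 4.796% in the HA-Macro MEF libraries, 4.55% and 5.30% with anti-MacroH2A2 in ES cells and MEFs, and 4.49% and 3.29% for H3.3 at 3 h and 6 h. Counting error of these shares was small, with a 95% exact binomial interval of 4.47% to 4.51% in the shallowest library, H3.3 at 3 h.

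**Figure D2:**
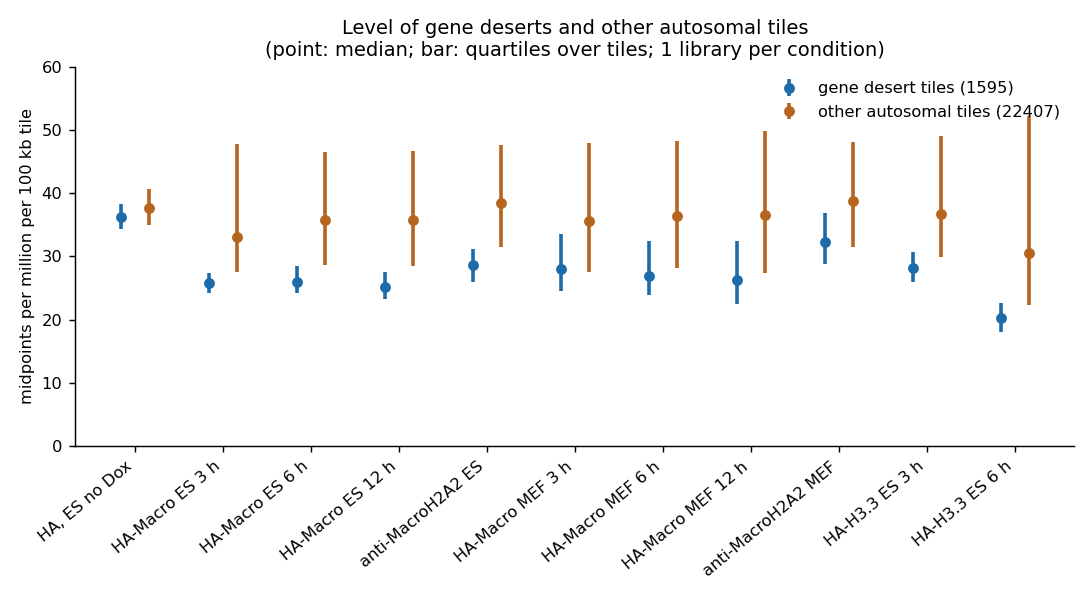
Median level (points) with quartiles over tiles (bars) in ppm per 100 kb tile (vertical axis) for the 1595 desert tiles and the 22407 other autosomal tiles in each of the 11 libraries (horizontal axis). The desert median lies beside the other median only in the uninduced library, at 36.2 against 37.6, and is farthest under it for H3.3 at 6 h, at 20.2 against 30.5.

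A tile was called low in a library when its level was at least 1.5-fold under the autosomal median. Without Dox 12 desert tiles were low, 0.752% of them, where 0.837% of all autosomal tiles were. In HA-Macro ES cells 27 desert tiles were low at 3 h (1.69%, against 0.971% of all tiles), 199 at 6 h (12.5%, against 3.7%) and 368 at 12 h (23.1%, against 5.61%). With all libraries reduced to the smallest total, 78 were low at 3 h (4.89%, against 1.71%) and 299 at 6 h (18.7%, against 5.21%). In MEFs the counts were 265 (16.6%, against 10.6%), 376 (23.6%, against 11.4%) and 552 (34.6%, against 15.9%). With this limit and uncentred levels the share of low desert tiles was thus above the share over all tiles at every time of induction in both cell types, by the least at 3 h. It was under it with levels centred on tiles of like composition, where 12, 13 and 11 desert tiles were low in HA-Macro ES cells at 3 h, 6 h and 12 h (0.752%, 0.815% and 0.690%, against 2.46%, 2.10% and 1.13%) and 23, 25 and 33 in MEFs (1.44%, 1.57% and 2.07%, against 5.82%, 4.70% and 7.60%). With a 2-fold limit 3, 8 and 11 were low in ES cells (0.188%, 0.502% and 0.690%, against 0.279%, 0.433% and 0.387%) and 7, 12 and 17 in MEFs (0.439%, 0.752% and 1.07%, against 0.833%, 0.887% and 1.35%). With anti-MacroH2A2, 258 desert tiles were low in ES cells (16.2%, against 7.69%), whereas in MEFs 139 were (8.71%, against 9.02%), a share next to the background with this limit and uncentred levels. For H3.3 the counts were 191 at 3 h (12.0%, against 7.25%) and 597 at 6 h (37.4%, against 14.6%). Centred on composition, the 258 of anti-MacroH2A2 in ES cells came to 36 (2.26%, against 4.64%) and those of H3.3 to 28 (1.76%, against 4.87%) and 63 (3.95%, against 12.5%), and with a 2-fold limit to 28 (1.76%, against 3.32%), 19 (1.19%, against 3.03%) and 49 (3.07%, against 3.70%). The 139 of anti-MacroH2A2 in MEFs came to 40 when centred (2.51%, against 6.52%) and to 19 with a 2-fold limit (1.19%, against 3.77%). Such shares also depend on spread, and other tiles spread more than desert tiles in every library. For H3.3 at 6 h their coefficient of variation was 72.0% against 20.3%, with the top 1% of uninduced tiles left out. The centred median desert tile was at or under 0 in every library, so a smaller low share does not mean a higher desert level. Low calls fell on the same tiles only in part. There were 103 desert tiles that were low in 6 or more of the 11 libraries, 6.46% of them against 4.02% of all tiles. This order turned round with levels centred on tiles of like composition, with 15 desert tiles or 0.940% against 2.27%, and with a 2-fold limit, with 7 or 0.439% against 0.767%. There were 5 that were low in all 11, 0.313% of them against 0.483% of all tiles, and 558 that were low in none, 34.98% of them against 71.8% of all tiles.

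High tiles, at least 1.5-fold over the autosomal median, were nearly absent from deserts in ES cells. Each ES library had 0 to 8 of them, where 0.612% to 30.2% of all tiles were high. MEFs had more: 36, 31 and 40 desert tiles were high in HA-Macro MEFs at 3 h, 6 h and 12 h, where 17.6%, 16.6% and 18.8% of all tiles were, and 15 were high with anti-MacroH2A2, where 10% were. In every library a smaller share of desert tiles was high than of all tiles.

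Base composition moved with the level. The median desert tile had 37.1% G and C (quartiles 36.4% and 37.8%) and 4.78 CpG dinucleotides per kb, against 41.8% (39.3% and 44.8%) and 8.15 in other tiles, and 1565 desert tiles (98.1%) lay under the autosomal median. When each level was taken relative to autosomal tiles of the same G and C content, in classes of 1 percentage point, the median desert tile differed by -0.03 without Dox, by -0.04 to -0.05 in the induced HA-Macro ES libraries, by -0.02 to 0.00 in the HA-Macro MEF libraries and by -0.05 and -0.00 with anti-MacroH2A2 in ES cells and MEFs, on the log2 scale. H3.3 kept the largest difference, at -0.06 and -0.09. Over 22407 other tiles the level at 12 h in HA-Macro ES cells followed G and C content with a Spearman coefficient of 0.83, and over the desert tiles, whose composition spans a narrow range, with one of 0.23. These are tiles of 1 library and share its depth and composition bias.

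The level also went with distance from genes. In HA-Macro ES cells at 12 h the median level was 39.1 in the 15585 tiles that overlap a protein-coding gene, 32.9 in the 3111 tiles under 100 kb from one, 27.7 in the 3711 tiles from 100 to 500 kb, and then 25.1, 24.6 and 25.4 in desert tiles at 500 to 750 kb, 750 kb to 1 Mb and beyond 1 Mb. Most of the fall was therefore outside the deserts, and the 3 desert classes were close to each other. H3.3 at 6 h fell sooner, from 39.1 to 24.3 and 21.6, and the 3 desert classes had 20.3, 19.8 and 20.5. The uninduced library went from 38.5 over 36.1 and 35.7 to 35.8, 36.3 and 36.9.

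MEFs had another order. With anti-MacroH2A2 in MEFs the tiles under 100 kb from a gene stood highest, at 42.2 against 38.7 in tiles that overlap a gene, and the level then went through 36.8 to 33.3, 31.7 and 31.1. HA-Macro MEFs at 12 h had 37, 40.3 and 32.3 outside the deserts and 27.3, 25.8 and 25.0 inside. In both MEF libraries the desert level thus still fell with distance, by more than in ES cells, where anti-MacroH2A2 had 28.9, 28.2 and 28.3. G and C content fell along the same classes, from 42.8% to 37.4%, 36.99% and 36.8%. At the limit that defines a desert there was no step: tiles at 450 to 500 kb had a median of 29.2 in HA-Macro MEFs at 12 h and tiles at 500 to 550 kb one of 28.2, and with anti-MacroH2A2 in ES cells the values were 30.0 and 29.4.

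**Figure D3:**
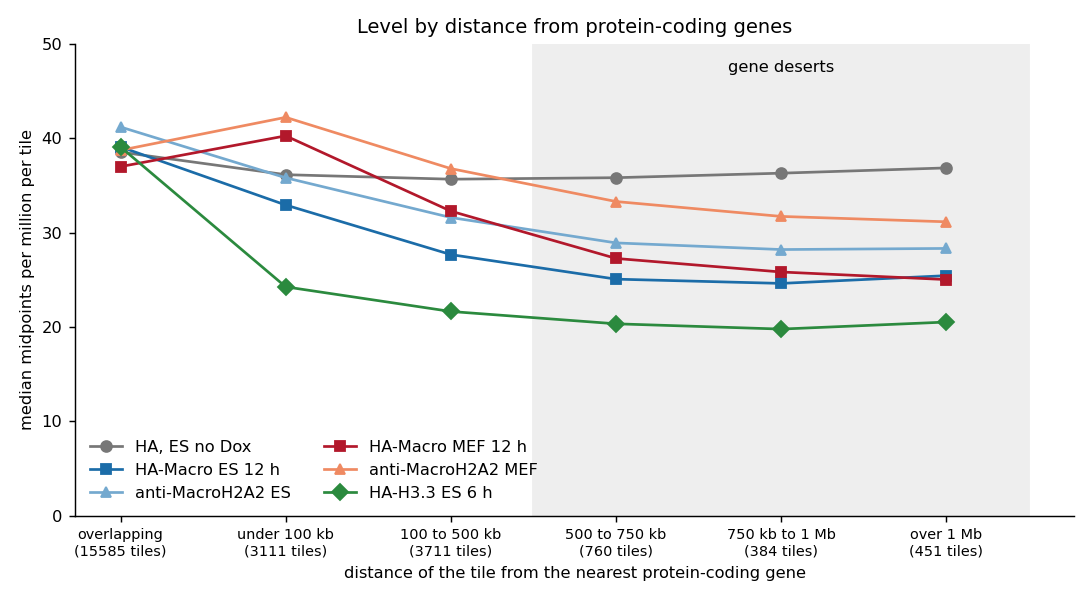
Median level in ppm per tile (vertical axis) by the distance of the tile from the nearest protein-coding gene (horizontal axis, 6 classes, the last 3 being desert tiles), with 1 line per library. The HA-Macro ES 12 h line falls from 39.1 to 25.4 and the H3.3 6 h line from 39.1 to 20.5, while the uninduced line stays between 35.7 and 38.5.

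Induction of HA-Macro in ES cells was read against the uninduced library. The study detected no tagged histone without Dox and describes this library as mostly flat background. It puts trace promoter signal there down to likely leaky expression, and names as an alternative that open chromatin may be isolated as an artifact without such expression. The ratios below therefore set an induced immunoprecipitation against background, and a lower value does not measure a loss of tagged histone from deserts. At 12 h the median desert tile was -0.52 on the log2 scale from its level without Dox (quartiles -0.63 and -0.39), where the median of all tiles was -0.09, and at 3 h it was -0.49, where the median of all tiles was -0.18. At 12 h 568 desert tiles (35.6%) were lower by 1.5-fold or more, against 8.05% of all tiles, and 5 were higher, against 7.08%. At 3 h 351 (22.0%) were lower, against 4.84%, and 0 were higher, against 10.1%. Of the 114 blocks of 5 or more tiles, 113 were below 0 at each time. With the libraries scaled to an equal median tile, the median desert tile was at -0.41 at 12 h and -0.27 at 3 h, with 228 desert tiles lower (14.3%, against 2.77%) and 8 higher (0.502%, against 11.2%) at 12 h. At 3 h 10 were then lower (0.627%, against 0.0792%) and 2 higher (0.125%, against 18.8%). With ratios centred on tiles of like composition 0 desert tiles were lower at either time, against 0.0458% and 0.579% of all tiles. Both comparisons use the same uninduced library. Among tiles with 36% to 37% G and C, the median at 12 h was -0.58 in 521 desert tiles and -0.57 in 998 other tiles, and at 3 h it was -0.53 and -0.51. Among tiles with 37% to 38% the values at 12 h were -0.51 in 524 desert tiles and -0.49 in 1662 others. The gap was wider among tiles with 39% to 41%, at -0.33 in 100 desert tiles and -0.26 in 4475 others at 12 h and at -0.37 and -0.29 at 3 h.

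Between 3 h and 12 h the median desert level moved little in ppm. In ES cells the median desert tile went by -0.03, where the median of all tiles was 0.04, and 12 desert tiles were higher by 1.5-fold (against 3.42% of all tiles) and 3 lower (against 7.09%), or 7 higher (0.439%, against 1.35%) and 4 lower (0.251%, against 9.98%) with the median tiles scaled to be equal. Without the chromosome 14 stretch 0 were lower (against 7.02%). In MEFs it went by -0.08, where the median of all tiles was 0.01, with 0 desert tiles higher and 0 lower (against 0.00833% and 0.025%). With all libraries reduced to the smallest total, 0 were higher (against 0.025%) and 7 lower (0.439%, against 0.129%). The 6 h libraries lay between or beside these values. With the libraries scaled to an equal median tile, the median desert tile went by -0.14 in ES cells and -0.11 in MEFs from 3 h to 12 h. The difference over desert tiles had an SD of 0.12 in MEFs, where counting error alone would give 0.098, so that most of the spread between those libraries is of the size of counting error. In ES cells the SD was 0.16 and counting error 0.094.

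The 12 desert tiles higher at 12 h than at 3 h in ES cells came down to 4 (0.251%, against 3.13% of all tiles) when identical intervals were counted once, and the blocks that the rule for extremes picked divide by this setting. 5930403N24Rik-Lama4, which lies beside the gene of a laminin subunit, was highest at 0.30 (0.24 to 0.37) and came to 0.04 with identical intervals counted once. Slitrk5-Tpm3-rs7 went from 0.23 (0.16 to 0.30) to 0.05 in the same way. Ttll7-Lphn2 was at 0.20 (0.13 to 0.27) and kept 0.21. At the other end stood Gfra2-Fndc3a, the desert inside the low stretch of chromosome 14, at -0.65 (-0.75 to -0.54). The next were Otol1-Sis at -0.14 and Cbln2-Socs6 at -0.13.

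In Gfra2-Fndc3a, beside the gene of the neurturin receptor subunit GFRA2, the level without Dox was 18.3 and that in HA-Macro ES cells 21.9, 13.8 and 14 at 3 h, 6 h and 12 h. HA-Macro MEFs had 18.3, 16.3 and 16.9, anti-MacroH2A2 had 32.5 in ES cells and 38.96 in MEFs, and H3.3 had 29.1 and 17.7. Anti-MacroH2A2 and H3.3 at 3 h were thus at the level of usual deserts or above it, and the other 8 libraries were under it. It was the lowest of the 114 blocks in all 7 HA-Macro libraries, MEFs and the uninduced library included.

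MEFs were then compared with ES cells, with each level relative to its own library. The study reports more MacroH2A2 in MEFs than in ES cells, and gains in MEFs that lay mostly in gene-poor regions. It considers it likely that scaling understates the gain over gene deserts and makes kept levels elsewhere look lost. The differences below therefore do not measure a change in the amount of MacroH2A2. With anti-MacroH2A2 the median desert tile was 0.19 higher in MEFs (quartiles 0.06 and 0.34, 1591 tiles with midpoints in both), where the median of all tiles was 0.00, and 86 desert tiles (5.41%) were higher by 1.5-fold, against 3.46% of all tiles, and 2 lower, against 4.55%. Of the 114 larger blocks 106 were above 0. Relative to tiles of like composition the shift was 0.05, and 32 desert tiles (2.01%) were higher against 3.11% of all tiles, while with a 2-fold limit 6 (0.377%) were against 0.402%, so that the excess of higher desert tiles was not seen in either setting. In the class of 36% to 37% G and C the desert tiles were at 0.18 and the other tiles at 0.13, in that of 37% to 38% at 0.20 and 0.13, in that of 38% to 39% at 0.22 and 0.13, and in that of 39% to 41%, with 99 desert tiles, at 0.29 and 0.07. By distance the median was -0.13 in tiles that overlap a gene, 0.17 and 0.21 in the next classes and 0.21, 0.18 and 0.16 in the desert classes, so that the shift was shared with the tiles around the deserts.

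HA-Macro at 12 h had a median MEF over ES difference of 0.05 (quartiles -0.18 and 0.38), where the median of all tiles was -0.05, with 227 desert tiles (14.2%) higher, against 12.9%, and 50 lower, against 8.47%. At 3 h the median was 0.11 with 220 desert tiles higher (13.8%, against 18.7%) and 8 lower (against 16.6%), and at 6 h it was 0.05 with 186 higher (11.7%, against 12.5%) and 40 lower (against 9%). The SD over desert tiles at 12 h was 0.42, and counting error alone would give 0.088. The share of higher tiles was thus close to the background or under it, and the spread between deserts was several times counting error.

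**Figure D4:**
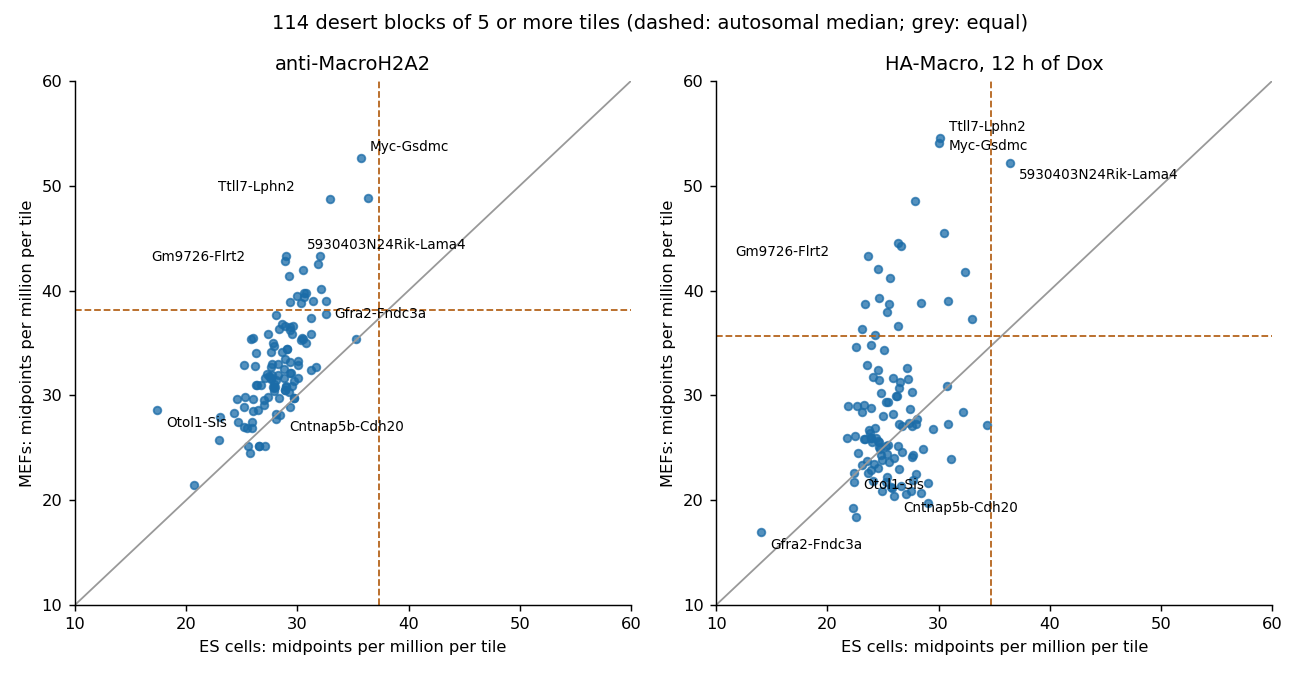
Level of each of the 114 desert blocks of 5 or more tiles in MEFs (vertical axis) against its level in ES cells (horizontal axis), in ppm per tile, for anti-MacroH2A2 and for HA-Macro at 12 h, with dashed lines at the autosomal medians and a grey line where both are equal. In ES cells the HA-Macro blocks run from 14 to 36.4 with nearly all near their median of 25.4, whereas in MEFs they run from 16.9 to 54.5, and 21 of them stand over the autosomal median.

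Desert tiles spread less in ES cells than in MEFs for the same antibody and time. The coefficient of variation over desert tiles was 9.58% without Dox, 10.98%, 17.2% and 21.7% in HA-Macro ES cells at 3 h, 6 h and 12 h and 27.2%, 27.8% and 31.6% in MEFs at these times, and counting error alone would give 4.11% to 5.60% in these libraries. With anti-MacroH2A2 it was 17.2% in ES cells and 22.7% in MEFs, with 6.40% and 4.50% from counting. The 95th percentile of the desert tiles was 1.59 times the 5th in HA-Macro ES cells at 6 h and 1.58 times at 12 h, so that this ratio did not rise between them. It was 2.47 times in HA-Macro MEFs at 12 h, and 1.62 and 1.95 times with anti-MacroH2A2 in ES cells and MEFs.

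Most of the spread in HA-Macro MEFs lay between blocks. Block membership accounted for 64.6%, 64.2% and 71.3% of the variance over desert tiles in HA-Macro MEFs at 3 h, 6 h and 12 h, and for 23.9% to 34.5% in the induced HA-Macro ES libraries and 37.03% without Dox. For anti-MacroH2A2 it was 23.4% in ES cells and 30.9% in MEFs, and 29.5% and 51.1% once 26 tiles that lie in the stretches above, are nearly empty in the libraries of 400 bp intervals or are undetermined over 10% or more of their length had been left out. Adjoining desert tiles were correlated at 0.83 in HA-Macro MEFs at 12 h and 0.42 in ES cells at 12 h. The tiles beside a block shared its level: over 114 blocks the Spearman coefficient between a block and the 5 tiles to either side was 0.85 in HA-Macro MEFs at 12 h, 0.83 with anti-MacroH2A2 in MEFs, 0.67 with it in ES cells and 0.46 in HA-Macro ES cells at 12 h. Most blocks were still under these flanks, 87 of 114 in HA-Macro MEFs at 12 h and 91 with anti-MacroH2A2 in each cell type, against 44 without Dox.

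The order of the deserts was shared between the tag and the antibody within MEFs. Over 1592 desert tiles the Spearman coefficient between anti-MacroH2A2 and HA-Macro at 12 h was 0.77 in MEFs, and over 1591 tiles it was 0.39 in ES cells. Between the cell types it was 0.63 for anti-MacroH2A2 and 0.15 for HA-Macro at 12 h. HA-Macro MEFs at 3 h and 12 h gave 0.93, and ES cells 0.70. In ES cells anti-MacroH2A2 had a higher coefficient with H3.3 at 3 h, at 0.60, than with HA-Macro, and those 2 libraries share an interval length. These coefficients describe tiles that share base composition and neighbours, and the desert tiles span a narrower range in ES cells.

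None of the 114 larger blocks was over the autosomal median with anti-MacroH2A2 in ES cells or with H3.3 at either time, and 1 or fewer was in each induced HA-Macro ES library, whereas 26 were in the uninduced library. In MEFs 22, 18 and 21 blocks were over it in HA-Macro at 3 h, 6 h and 12 h and 18 with anti-MacroH2A2. Of the last 18, 16 were among the 21 of HA-Macro at 12 h. They were Myc-Gsdmc, Ttll7-Lphn2, 5930403N24Rik-Lama4, Slc4a3-Epha4, Gm9726-Flrt2, Nmbr-Cited2, Lcorl-Slit2, Celf2-Gata3, Arrdc4-Nr2f2, Agtr1b-Tbl1xr1, Ets1-Kirrel3, Slc8a1-Pkdcc, Stxbp6-Nova1, 1700019M22Rik-Galc, Gm1840-Efnb2 and Gm5506-Dtwd2. The 21 blocks had a median G and C content of 37.6% and the others one of 36.9%.

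The 4 blocks with the highest MEF over ES difference for anti-MacroH2A2 began with Otol1-Sis, chr3:70400001-72100000, at 0.72 (0.65 to 0.78). Its level was 17.4 in ES cells and 28.6 in MEFs, and 10 of its 17 tiles lie in the chromosome 3 stretch that is low in the ES library alone. Inside that stretch its tiles ran from 9.60 to 16.6 in ES cells with a median of 13.7, and outside it from 21.5 to 27.2 with a median of 22.6. The stretch was drawn from these ES values relative to H3.3 at 3 h, so that this gap was set at least in part by that rule. In MEFs the medians were 28.2 inside and 29.6 outside, and without Dox 35.3 and 35.7. HA-Macro in this block was at 22.4 in ES cells and 22.6 in MEFs at 12 h.

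The other 3 were high in MEFs by both measures. In Ttll7-Lphn2, chr3:147200001-147900000, beside the latrophilin gene Lphn2 (an adhesion receptor), anti-MacroH2A2 was at 32.9 in ES cells and 48.8 in MEFs, and the difference was 0.57 (0.49 to 0.64). HA-Macro there was at 35.1 without Dox, 26.2, 29.5 and 30.1 at 3 h, 6 h and 12 h in ES cells and 49.1, 53.4 and 54.5 in MEFs, and H3.3 was at 31.4 and 24.6. This block had the highest level of the 114 larger blocks in HA-Macro MEFs at 6 h and 12 h. 5930403N24Rik-Lama4, chr10:37400001-38100000, had anti-MacroH2A2 levels of 28.9 and 43.2 and a difference of 0.58 (0.50 to 0.66). Its HA-Macro levels at 12 h were 36.4 in ES cells and 52.2 in MEFs, or 29.2 and 52.5 with identical intervals counted once. Gm9726-Flrt2, chr12:95700001-96400000, had 28.9 and 42.8 with anti-MacroH2A2, a difference of 0.57 (0.49 to 0.65), and 23.7 and 43.3 with HA-Macro at 12 h, a difference of 0.87.

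Myc-Gsdmc, chr15:62400001-63100000, was chosen after its values had been seen, as the highest of the 114 larger blocks with anti-MacroH2A2 in MEFs. This desert follows the proto-oncogene Myc. Its anti-MacroH2A2 level was 35.7 in ES cells and 52.6 in MEFs, a difference of 0.56 (0.49 to 0.63). HA-Macro was at 37.6 without Dox, at 28.9, 30.8 and 30.0 in ES cells and at 51.9, 51.4 and 54.1 in MEFs at 3 h, 6 h and 12 h. H3.3 was at 31.8 and 23.0, within the range of other deserts but near its top at 3 h, where blocks ran from 21.8 to 32.6 with a median of 28.1. With anti-MacroH2A2 in ES cells the block was also near the highest, which was at 36.3.

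The lowest differences were near 0. Vrk2-Gm6685 on chromosome 11 was at -0.10 (-0.19 to -0.01), with 27.0 in ES cells and 25.2 in MEFs, and Cntnap5a-Tsn on chromosome 1 at -0.08 (-0.17 to 0.02), with 26.6 and 25.2. BC030500-Gm10283 on chromosome 8 was at -0.08 (-0.18 to 0.03) and Cdh10-Acot10 on chromosome 15 at -0.07 (-0.18 to 0.03). These blocks were picked by this same ratio and the intervals cover counting error only, so they do not test a difference from 0. HA-Macro at 12 h was lower in MEFs than in ES cells in all 4, by -0.39, -0.56, -0.21 and -0.46. Among the 114 larger blocks the lowest with anti-MacroH2A2 in MEFs was Gm20516-Pgk2 on chromosome 17, at 21.5, and it had 20.7 in ES cells.

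The 10 longest deserts, which were chosen for their length, covered part of this range. Celf4-Pik3c3 on chromosome 18 (34 tiles), between the gene of an RNA-binding protein and that of a lipid kinase, was at 35.9 without Dox, 28.0 in HA-Macro ES cells at 12 h, 27.8 in MEFs, and 30.8 and 35.03 with anti-MacroH2A2 in ES cells and MEFs. Olfm4-Pcdh17, chr14:81000001-84300000 (33 tiles), which precedes a protocadherin gene, was at 37.4, 24.7, 24.8, 28.0 and 30.8 in the same order. In both the 2 cell types were alike for HA-Macro, with differences of -0.01 and 0.01, and MEFs were higher for anti-MacroH2A2 by 0.19 and 0.14.

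Cntnap5b-Cdh20, chr1:102900001-106100000 (32 tiles), beside genes of a contactin-associated protein and a cadherin, was the lowest of the 10 in MEFs. HA-Macro at 12 h was at 26.0 in ES cells and 20.4 in MEFs, a difference of -0.35 (-0.38 to -0.31), and anti-MacroH2A2 at 28.4 and 28.1, a difference of -0.02 (-0.06 to 0.02). Another long desert of the same chromosome, Dsel-Cntnap5a (27 tiles), had 25.5 and 23.6 with HA-Macro and 27.4 and 31.9 with anti-MacroH2A2.

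Zeb2-Acvr2a, chr2:45500001-48100000 (26 tiles), between the gene of a transcription factor of the epithelial to mesenchymal transition and that of an activin receptor, was the highest of the 10 in MEFs. HA-Macro there was at 25.5 in ES cells and 38.7 in MEFs at 12 h, a difference of 0.60 (0.57 to 0.63), and anti-MacroH2A2 at 28.9 and 36.6, a difference of 0.34 (0.30 to 0.39). Nudt12-Efna5 on chromosome 17 (27 tiles), beside the ephrin gene Efna5, had 23.1 and 36.4 with HA-Macro, a difference of 0.65 (0.62 to 0.69), and 26.0 and 35.4 with anti-MacroH2A2, a difference of 0.45 (0.40 to 0.49). Over the 114 blocks the median HA-Macro level in ES cells at 12 h was 25.4. The other 4, 4930555F03Rik-Aga, Pcdh7-G6pd2, D3Ertd751e-Pcdh10 and Stim2-Pcdh7, had HA-Macro differences of 0.02, -0.14, 0.12 and -0.06 and anti-MacroH2A2 differences of 0.18, 0.05, 0.23 and 0.08.

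Deserts of a chromosome shared part of this. In the ES libraries the median desert tile of a chromosome was 0.95 to 1.08 times the median of all desert tiles. In HA-Macro MEFs at 12 h it ran from 0.85 times on chromosome 6 to 1.32 times on chromosome 2, with medians of 22.2 and 34.6. The other tiles of these chromosomes were at 0.93 and 1.01 times the median of other tiles, so the difference between the chromosomes was larger in their deserts. With anti-MacroH2A2 in MEFs the range was 0.92 on chromosome 1 to 1.12 on chromosome 2.

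The highest single tiles differed between libraries, and some of them were rich in G and C for a desert. The highest desert tile with anti-MacroH2A2 in ES cells was chr9:46700001-46800000, between 4931429L15Rik and the adhesion gene Cadm1, at 71.2 and with 45.4% G and C, and it was also the highest for H3.3, at 60.1 at 3 h and 46.4 at 6 h. The highest with anti-MacroH2A2 in MEFs was chr12:108100001-108200000, between Vrk1 and 3110018I06Rik, at 70.96 and with 46.2% G and C, and it was the highest of HA-Macro MEFs at 3 h too, at 77.2. HA-Macro MEFs at 12 h were highest in chr8:105900001-106000000, between Gm8730 and Cdh5, the gene of the endothelial cadherin, at 73.95 against 26.8 in ES cells at 12 h, with 42.6% G and C. The other highest tiles had a composition closer to that of usual deserts. HA-Macro ES cells were highest at all 3 times in a tile of Gm10110-Pcdh9 with 35.9% G and C, at 54.99, 69.1 and 104. This tile was already at 50.6 without Dox. With anti-MacroH2A2 in ES cells it was at 27.4, under the desert median of 28.6. HA-Macro MEFs at 6 h were highest in a tile of Nmbr-Cited2 with 37.7%, at 70.7, and the uninduced library in a tile between Nxph1 and Ndufa4 with 38.4%, at 53.1.

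Some desert tiles were nearly empty, and only in the libraries of 400 bp intervals. There were 7 desert tiles with at most 10 midpoints in each of those 4 libraries, and they held 178 to 374 midpoints in the uninduced library. They are 3 adjoining tiles at chr2:100300001-100600000, 1 at chr4:31400001-31500000, 2 on chromosome 12 of which 50% is undetermined, and 1 on chromosome 17. Over the autosomes 142 tiles had this pattern, with at least 50 midpoints in each library of 150 bp intervals, so it is not particular to deserts. Such tiles make up the lowest values of the anti-MacroH2A2 and H3.3 libraries above, and 4 tiles with 0 midpoints in a library are missing from their ratios.

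H3.3 was lower in deserts at 6 h than at 3 h. The median desert tile was -0.46 at 6 h relative to 3 h (quartiles -0.59 and -0.34), where the median of all tiles was -0.24, and 405 of 1591 desert tiles (25.5%) were lower by 1.5-fold, against 11.6% of all tiles, while 2 were higher, against 4.26%. All 114 larger blocks were below 0, from -0.72 to -0.19. With the median tiles scaled to be equal, the median was -0.16, and 15 desert tiles were lower (0.943%, against 0.607%) and 2 higher (0.126%, against 15.2%). Relative to tiles of like composition the median was -0.04, with 5 desert tiles lower (0.314%, against 3.26%). In the class of 36% to 37% G and C desert tiles were at -0.46 and other tiles at -0.44, in that of 37% to 38% at -0.47 and -0.41, and in that of 39% to 41%, with 99 desert tiles, at -0.52 and -0.33. Block levels at 6 h ran from 14.6 to 27.1, the latter in Fam92a-Runx1t1, beside the gene of the transcriptional corepressor RUNX1T1, which was also the highest block of HA-Macro ES cells at 3 h and 6 h, at 30.0 and 34.9.

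At finer scale H3.3 at 6 h had more sharp peaks in deserts than at 3 h. Of 159500 windows of 1 kb in desert tiles, 38 held at least 10 times the mean at 6 h and 2 did at 3 h, where the mean was 2.21 and 1.83 midpoints. The 3 windows printed above are among the 38. The HA-Macro libraries had 12 such windows without Dox, 18 to 29 in induced ES cells and 17 to 22 in MEFs, and anti-MacroH2A2 had 7 and 5. A window of a deeper library needs more midpoints to reach 10 times its mean, so these counts are not on 1 scale. They cover all desert windows, without the limits used to choose the sequences. Windows outside deserts were not counted, so whether any of these counts is particular to deserts was not tested.

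Deserts are free of protein-coding genes by their definition, but 283 desert tiles overlap an annotated gene of another kind, and 323 of the 34653 annotated transcription start sites lie in them. Of these genes 107 are pseudogenes, 62 are snRNA, 56 snoRNA and 34 miRNA genes, 26 are processed transcripts, 3 are lincRNAs and 15 are immunoglobulin heavy chain variable segments, all in the 4 tiles of Gm7112-Ighv1-73 on chromosome 12. Around these starts, within 600 bp to either side, the mean number of midpoints was 0.9898 and 1.05 times the desert background for H3.3 at 3 h and 6 h, 1.11 to 1.20 times in the induced HA-Macro ES libraries, 1.18 to 1.21 times in the HA-Macro MEF libraries, 1.06 times without Dox and 1.08 and 1.07 times with anti-MacroH2A2 in ES cells and MEFs. As a group the starts in deserts were thus near background. H3.3 at 6 h was at 0.260 ppm around them, and at 2.29 around starts of protein-coding genes.

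A few single starts were above it for H3.3. That of the lincRNA 9330185C12Rik on chromosome 1 held 31 midpoints at 6 h and 6 at 3 h, and that of the lincRNA Gm11818 on chromosome 4, in Fam92a-Runx1t1, held 19 and 7, where the desert background was 2.65 and 2.19. Anti-MacroH2A2 in ES cells had 13 midpoints at Gm11818, where its background was 2.93, and 5 at 9330185C12Rik. The next were the pseudogenes Gm11862 with 13 and 0, Gm12077 with 12 and 1, RP24-165O16.1 with 11 and 4 and Gm12075 with 10 and 3. The starts were ranked by the values at 6 h, so that those at 3 h are the free ones. RP24-165O16.1 was also over background with HA-Macro in ES cells, at 9 midpoints without Dox (background 5.46) and 25 at 3 h (background 5.44). It held 17 at 6 h (background 5.72) and 8 at 12 h (background 5.90). This start lies between the 2 nearly empty tiles of chromosome 12 of which 50% is undetermined. Gm11862 was over the same backgrounds too, at 10 midpoints without Dox and at 10, 14 and 13 in HA-Macro ES cells at 3 h, 6 h and 12 h. In the immunoglobulin tiles anti-MacroH2A2 was low in both cell types, at 19.7 in ES cells and 19.1 in MEFs, with 35.2 without Dox.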

How the data were processed

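Intervals of 11 ChIP-seq libraries were deposited as positions (chromosome, start, end) with no score. According to the methods, the authors collapsed reads by sequence with their occurrences kept, aligned them to mm9 with Bowtie (1.0 in the submitters' processing notes) allowing 1 mismatch, picked 1 place randomly where a read had more, and lengthened alignments on their 3′ side to 150 bp. The intervals of 4 libraries are 400 bp long. Midpoints of the deposited intervals were counted in tiles of 100 kb, repeats included, and scaled to 1000000 midpoints per library (ppm). Protein-coding genes and start sites came from GENCODE vM1, and sequence from NCBIM37, whose chromosome lengths match mm9. The members and lists were chosen with earlier results of these data known. Named blocks were the 10 with most tiles and, among blocks of 5 or more tiles, the extremes of MEF over ES and of 12 h over 3 h. Named start sites had the most H3.3 midpoints at 6 h, and so had the windows within the limits given with them, chromosome 18 left out. Block ratios have exact binomial intervals at 95%. Python 3.11.15, numpy 2.4.6, pandas 2.3.3, scipy 1.17.1 and pysam 0.24.0 were used, and the fold calls were tested on simulated tile counts. Alternatives were other scalings, distances, folds and composition centring. Stretches and nearly empty tiles were left out in alternatives chosen after seeing the data. One kind of sequence in some desert tiles is not reported here.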

Additional observations from a re-analysis of the deposited data

How the results depend on the processing

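No paired analysis was run, as each condition has 1 library and the labels give no replicate numbers, and no replicate could be left out. Of 108 main counts recomputed 74 stayed within 1.5 times, and 34 did not. A limit of 250 kb in place of 500 kb (3233 tiles) gave 204 tiles low in 6 or more libraries (6.31%, 103 in the report), 890 lower at 12 h than without Dox (27.5%, 568), 533 at 3 h (16.5%, 351), 48 higher at 12 h than at 3 h (1.49%, 12), 199 higher in MEFs with anti-MacroH2A2 (6.18%, 86), 613 with HA-Macro (18.97%, 227) and 757 lower for H3.3 (23.5%, 405), and a limit of 1 Mb (451 tiles) gave 22 (4.88%), 162 (35.9%), 126 (27.9%), 2 (0.443%), 18 (3.99%), 39 (8.65%) and 118 (26.2%). Of all tiles 4.02%, 8.05%, 4.84%, 3.42%, 3.46%, 12.9% and 11.6% were called, so that the HA-Macro share in MEFs was over the background at 250 kb and under it at 1 Mb. A 2-fold limit gave 7, 1, 0, 1, 6, 43 and 1 (0.439%, 0.0627%, 0%, 0.0627%, 0.377%, 2.70% and 0.0629%, against 0.767%, 0.0125%, 0.00833%, 0.0917%, 0.402%, 2.65% and 0.218% of all tiles). Centring on composition gave 15 low tiles (0.940%, against 2.27%), 0 and 0 lower than without Dox at 12 h and 3 h (against 0.0458% and 0.579%), 32 higher in MEFs with anti-MacroH2A2 (2.01%, against 3.11%) and 5 lower for H3.3 (0.314%, against 3.26%). Scaling the median tiles to be equal gave 228 lower at 12 h (14.3%, against 2.77%), 10 at 3 h (0.627%, against 0.0792%), 7 higher at 12 h than at 3 h (0.439%, against 1.35%) and 15 lower for H3.3 (0.943%, against 0.607%). Dividing by the uninduced library left 49 low tiles (3.07%, against 2.72%), and 6 h in place of 12 h gave 370 lower than without Dox (23.2%, against 4.804%). In ES cells from 3 h to 12 h, 4 tiles were higher with identical intervals counted once (0.251%, against 3.13%), and 3 were from 6 h to 12 h (0.188%, against 0.221%). Of 351 other values 265 stayed, 84 moved and 2 turned sign: the median from 3 h to 12 h in ES cells was 0.0033 after centring (-0.03 before), and the HA-Macro MEF over ES median was -0.053 beyond 1 Mb (0.05). From 3 h to 12 h in MEFs 0 desert tiles were higher in every setting, while 7 were lower with libraries reduced to the smallest total (0.439%, against 0.129%) and 0 in the other settings. The limits of 250 kb and 1 Mb change the number of tiles, and the counts move with it. The share low in 6 or more libraries was 6.31% at 250 kb and 6.46% at 500 kb. The HA-Macro share higher in MEFs was 8.65% at 1 Mb and 14.2% at 500 kb. Why the shares and the other values moved was not tested.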
